A study of Mus musculus with 109 samples.

Results

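The transcripts described here are 49 mouse genes known as targets of type I interferon. They were listed by name and not by their values, and were looked up by symbol in the deposited expression tables of microglia, the resident macrophages of the brain. All 49 were rows of 3 tables, which hold 12498, 12798 and 13390 genes, and 47 were among the 11549 rows of the table of untreated microglia, of which Oas1g and Ifi44 were not rows. They comprise 4 IFIT genes, 6 OAS genes, 6 genes of ISG15 conjugation and E3 ligases, 3 PARP genes, 8 nucleic acid sensors and kinases, 8 antiviral effectors, 3 Schlafen genes and 11 other interferon-stimulated genes. Interferon-induced chemokines, antigen presentation genes, interferon-inducible GTPases other than Mx1, Mx2 and Ifi47, and the Irf and Stat factors were not members.

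Type I interferons are cytokines made by cells that sense viral nucleic acid or bacterial lipopolysaccharide (LPS). They bind the receptor formed by IFNAR1 and IFNAR2, and the kinases JAK1 and TYK2 then activate transcription factors that bind the interferon-stimulated response element in target promoters. The target genes block viral RNA translation, degrade RNA, sense nucleic acid or dampen the signal itself. In microglia, LPS reaches this pathway through TLR4, TICAM1 and IRF3, which induce interferon beta. IL-10, acting through IL10RA, is known as a restraint on LPS responses of macrophages, and TNF is one of the cytokines it restrains.

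The RNA libraries came from microglia sorted by CD45 and CD11b from untreated mice or after peripheral LPS at 2.5 mg/kg, given into the peritoneum. Controls were IL10Rafl/fl mice without Cre: 6 untreated libraries, 6 at 6 h, 4 at 24 h, 6 at 48 h and 4 on day 7. Il10ra mutants were CX3CR1-CreER:IL10Rafl/fl mice: 9 untreated libraries, 7 at 6 h, 5 at 24 h and 5 at 48 h. Doubly floxed controls were IL10Rafl/fl:TNFfl/fl mice: 6 untreated libraries, 5 at 6 h and 6 at 48 h. Double mutants were CX3CR1-CreER:IL10Rafl/fl:TNFfl/fl mice: 5 untreated libraries, 6 at 6 h and 4 at 48 h. A further 4 libraries came from untreated WT C57BL/6 mice. All groups except the C57BL/6 mice carry the floxed Il10ra alleles. CX3CR1-CreER is an inducible Cre driven by the Cx3cr1 promoter, which is active in microglia and also in macrophages of the brain borders and in monocytes, and the sources used here state neither age nor sex nor tamoxifen dosing. Groups given LPS, and the untreated groups of the same tables, were fitted with a term for the experiment named with each library (the second, the third, the challenge, the day 7, the double mutant second or the post-LPS experiment), and the comparison with C57BL/6 libraries, which come from a rechallenge experiment, had no such term. Library names carry numbers that the sources used here do not explain as animals, so p-values measure only the spread between these libraries, which may in part be technical.

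Recovered reads per library ran from 540642 to 2489084 across the tables. The targeted genes were measured in every library: Il10ra was at 457.2 to 744.6 normalised reads in the 6 untreated controls and at 19 to 123.6 in the 9 untreated Il10ra mutants, and at 6 h Tnf was at 172.3 to 602.8 in doubly floxed controls and at 1.43 to 31.1 in double mutants. The summed level of 10 microglia markers was 40036 to 41908 normalised reads in untreated controls, 20141 to 23454 at 6 h, 24773 to 30717 at 48 h and 38836 to 43294 on day 7. These are bulk samples, in which fewer cells of a type and less RNA per cell cannot be told apart. Libraries of the controls and of the Il10ra mutants stand in more than 1 table with identical reads, so comparisons that share them are not independent.

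Promoter sequence was read for the members in RefSeq's GRCm38.p6, the assembly also called mm10, from 250 bases before to 50 bases after each annotated start, and 37 of 49 members matched. Oas2, Usp18, Parp9, Parp14, Dhx58, Zbp1, Ifi204, Mx1, Mx2, Rtp4, Ifi27l2a and Tor3a had no entry. The core of the interferon-stimulated response element was searched as GAAANNGAAA, which reads TTTCNNTTTC on the opposite strand. It was found in 19 of 37 members (51.4%), against 3.99% of the 27025 genes of the table. The windows below show it in members that the results turn on, 5′ to 3′ on each gene's own strand, with matches in capitals.
Isg15, chr4:156200855-156200916, minus strand: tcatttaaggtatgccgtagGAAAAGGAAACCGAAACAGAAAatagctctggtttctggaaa
Ifit1, chr19:34640765-34640833, plus strand: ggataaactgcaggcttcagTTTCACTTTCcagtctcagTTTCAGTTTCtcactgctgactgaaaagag
Ifit3, chr19:34583353-34583436, plus strand: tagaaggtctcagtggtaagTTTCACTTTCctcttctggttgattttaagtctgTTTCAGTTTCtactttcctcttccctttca
Rsad2, chr12:26456543-26456592, minus strand: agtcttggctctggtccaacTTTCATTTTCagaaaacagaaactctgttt
Bst2, chr8:71537567-71537622, minus strand: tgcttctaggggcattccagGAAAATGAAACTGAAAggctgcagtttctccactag
Oas1a, chr5:120907526-120907565, minus strand: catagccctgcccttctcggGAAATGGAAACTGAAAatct
Isg15 held 3 overlapping copies in an unbroken run of repeats. Ifit1 and Ifit3 held 2 separate copies each, Bst2 and Oas1a 2 overlapping ones and Rsad2 1. The Ifit3b window at chr19:34607749-34607832 has the same letters as that of Ifit3, and reads of such near-identical copies (Ifit3 and Ifit3b, Oas1a and Oas1g, and possibly Phf11b and Phf11d or Ifi204 and Ifi207) may have been divided between them in counting, so their separate levels are uncertain.

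Members with large responses to LPS were also found among those without the core. The 100 bases before the start of Oasl1, which had the largest change of all members at 6 h, and of Slfn2, which is turned to below, are shown for that reason.
Oasl1, chr5:114923140-114923239, plus strand: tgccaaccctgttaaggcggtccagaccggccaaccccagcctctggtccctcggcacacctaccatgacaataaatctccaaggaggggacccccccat
Slfn2, chr11:83065012-83065111, plus strand: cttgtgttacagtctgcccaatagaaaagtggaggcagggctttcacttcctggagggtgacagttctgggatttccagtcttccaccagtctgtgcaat
No full match to the core stands in either gene's window. Allowing 1 mismatch, 35 of 37 members (94.6%) and 38.88% of all genes held it. An NF-kB core, GGGNNNNNCC or GGNNNNNCCC on the opposite strand, was found in 54.1% of members and 53.52% of all genes. A match is a stretch of letters and not a shown binding site.

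The first comparison asked how the members responded to LPS in controls with intact Il10ra and Tnf. Nearly all rose within 6 h: 46 of the 47 members tested were higher and 0 lower, with a median log2 change of 2.32 against -0.05 for all genes. Of all 11103 genes tested, 20.4% were called higher and 21.1% lower. Oas1g and Ifi44 did not pass the filter on low values, and Herc6, a ligase for ISG15, was the only tested member not called, with a log2 change of 0.43 ± 0.54 (SE). At 24 h, 40 members were higher and 0 lower (14.2% of all genes higher and 15% lower), with a median of 1.78. At 48 h, 41 were higher and 0 lower (11.1% and 7.9% of all genes), with a median of 2.1. On day 7, 15 were higher and 0 lower (3.14% and 0.955% of all genes), with a median of 0.68. Fold changes here are on the scale of log2(normalised reads + 1), which understates the change of low genes, and a call is an adjusted p under 0.05 over all genes (limma, Benjamini-Hochberg). The groups did not overlap for 41 members at 6 h, 32 at 24 h, 35 at 48 h and 15 on day 7. The share of all genes without overlap was not computed, so these counts only describe the members. The mean level was highest at 6 h for 26 of the 49 members, at 24 h for 5 and at 48 h for 18. These means were not adjusted for the experiment. All 6 libraries at 48 h came from the third experiment, and those at 6 and 24 h from the second or the challenge experiment. Levels compared between these times therefore also differ by experiment. The challenge experiment had no untreated control library. With the experiment term, the fitted changes at 6 and 24 h against untreated therefore rest mainly on the second experiment. It holds 3 untreated control libraries, 3 at 6 h and 3 at 24 h. The fitted changes at 48 h rest mainly on the third experiment, which holds 3 untreated control libraries.

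**Figure D1:**
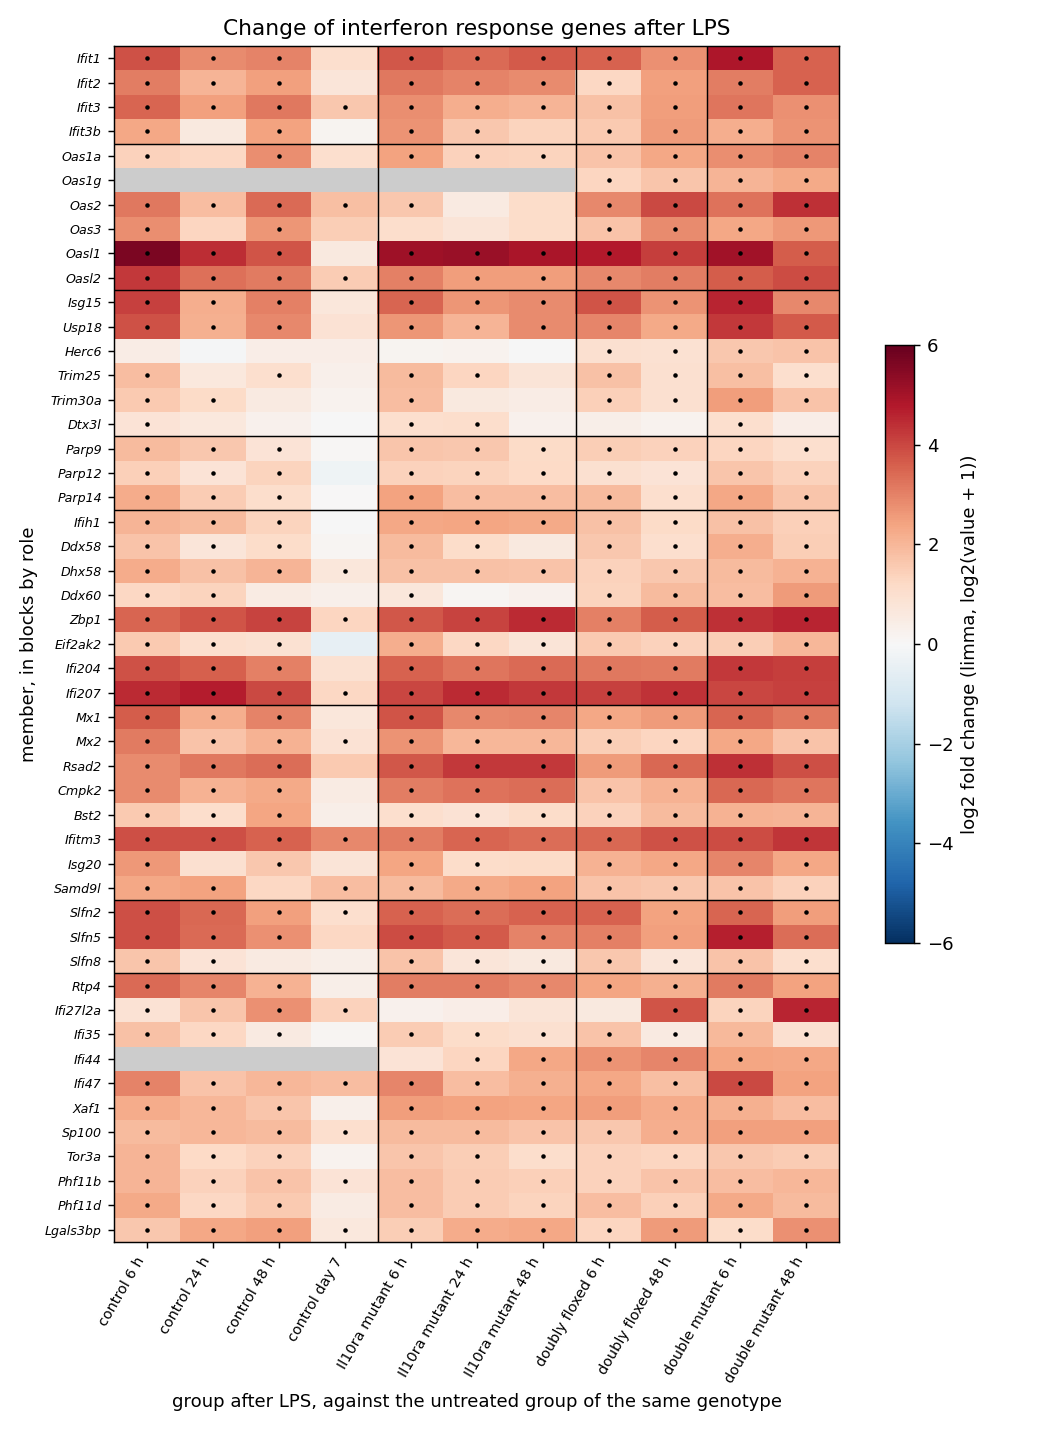
Log2 change of each of the 49 members (rows, in blocks by role) in each LPS group against the untreated group of the same genotype (columns), with colour for the log2 fold change and a dot for a call at an adjusted p under 0.05 (limma), and grey where a member was not tested. Nearly every cell at 6, 24 and 48 h is on the higher side, and in controls the day 7 column holds 15 calls.

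The IFIT proteins bind foreign RNA and block its translation. All 4 rose at 6 h, with a class median of 3.28. Ifit1 was at 1.72 to 13.3 normalised reads in the 6 untreated libraries (median 7.47), and at 65.4 to 123.8 (median 88.3) at 6 h. The 4 libraries at 24 h had 89.3, 102.9, 24.7 and 27.5, those at 48 h 23.9 to 127.8 (median 63.5), and those on day 7 had 12.2, 14.8, 11.2 and 19.9. Every library at 6, 24 or 48 h was above every untreated one, and day 7 overlapped the untreated range. The log2 change of Ifit1 at 6 h was 3.83 ± 0.50. On day 7 only Ifit3 of this class was called, at 1.62.

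The OAS proteins make a second messenger that activates RNase L, and OASL1 lacks that activity. Oasl1, known to restrain translation of IRF7, had the largest 6 h change of all tested members, 5.63 ± 0.59 (adjusted p = 1.18e-08). Within the second experiment alone, on which this change mainly rests, it was 5.62 ± 0.70. Its untreated levels were 0.858 to 8.74 normalised reads (median 3.8). At 6 h the 3 libraries of the second experiment had 346.0, 302.0 and 282.6, and the 3 of the challenge experiment 62.9, 89.8 and 86.7. At 24 h the 3 libraries of the second experiment had 225.0, 377.7 and 29.2, and that of the challenge experiment 32.6. All 10 of these libraries lay above the untreated range, although the spread within a group was several fold. At 48 h Oasl1 was at 15.4 to 92.8 (median 53.5), and on day 7 at 5.34, 8.88, 9.24 and 3.06, overlapping the untreated range. Oasl2 rose by 4.23 ± 0.44 at 6 h. It was at 1.67 to 15.4 normalised reads untreated (median 7.73), and its 48 h range, 41.9 to 164.7, overlapped that at 6 h, 75.5 to 124.6 (median 96.2). All 5 OAS genes tested were higher at 6 h and at 48 h, 3 of 5 at 24 h and 2 of 5 on day 7.

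ISG15 is a ubiquitin-like modifier, and USP18 removes it from proteins and blocks IFNAR signalling. Isg15 was at 13.3 to 41.9 normalised reads (median 25.8) untreated and at 296.4 to 510.2 (median 401.6) at 6 h, a log2 change of 4.08 ± 0.41. At 24 h it was at 158.6, 221.5, 59.5 and 82.6, at 48 h at 88 to 316.4 (median 199.3), and on day 7 at 51.9, 42.9, 29.7 and 39.8. All libraries at 6, 24 and 48 h were above all untreated ones, and the day 7 difference of 0.68 was not called (adjusted p = 0.332). Trim30a, an E3 ligase known to damp TLR signalling, rose less, by 1.55 ± 0.42 (adjusted p = 0.0035), from 23.6 to 66.1 untreated (median 47.4) to 49.3 to 243.8 at 6 h. Its ranges overlapped. Of the 6 genes of this class 5 were higher at 6 h, 3 at 24 h, 3 at 48 h and 0 on day 7, where the class median was 0.35.

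PARP9, PARP12 and PARP14 are ADP-ribosyltransferases or their partners. All 3 genes rose at 6, 24 and 48 h and none was called on day 7, where the class median was 0.02. Parp14 was at 60.9 to 80.6 normalised reads untreated (median 77.9) and at 186.2 to 384.5 at 6 h (median 293.6), with no overlap and a log2 change of 2.24 ± 0.25.

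Among the nucleic acid sensors and kinases all 8 rose at 6 and 24 h and 7 of 8 at 48 h. Ifi204, of the family that binds DNA in the nucleus and cytosol, was at 15.8 to 35.8 normalised reads untreated (median 25.3), at 181.1 to 452.0 at 6 h (median 292.3) and at 35.2 to 65.8 on day 7. The 6 h range lay wholly above the untreated one, and the log2 change was 3.81 ± 0.33. Its relative Ifi207 changed by 4.47 ± 0.30 at 6 h, 4.70 at 24 h and 3.98 at 48 h, and was among the 3 largest changes at each of these times. Eif2ak2, the RNA-dependent kinase PKR, rose by only 1.55 ± 0.27, from 65.5 to 100 (median 91.3) to 109.7 to 277.6 (median 182.1). The groups still did not overlap. Ddx60, a helicase, had one of the 3 smallest called changes, 1.23 ± 0.38. Zbp1, a sensor of Z-form nucleic acid that can trigger cell death, had the largest change of all members at 48 h: it was at 4.17 to 13.7 normalised reads untreated (median 6.53) and at 69.2 to 182.7 at 48 h (median 134.1). The ranges lay far apart, and the log2 change was 4.05 ± 0.31 (adjusted p = 9.49e-11).

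All 8 antiviral effectors rose at 6 h, with a class median of 2.83. Ifitm3, a membrane protein that blocks virus entry, was at 12 to 15.8 normalised reads untreated (median 14), at 170.2 to 309.5 at 6 h (median 204.3), and at 293.6, 291.7, 161.6 and 168.3 at 24 h. It was at 87.2 to 271.5 at 48 h (median 176.3) and at 202.1, 113.2, 62.1 and 98.1 on day 7. Every library after LPS, day 7 included, lay above every untreated one, and the day 7 change of 2.88 ± 0.27 (adjusted p = 4.32e-08) was the largest of all members. Bst2, or tetherin, which holds budding virus on the cell surface, had a different course. It was at 150.0 to 246.4 untreated (median 169.1), 501.9 to 717.0 at 6 h (median 586.3), 342.9, 435.8, 346.9 and 504.8 at 24 h, and 583.7 to 1305 at 48 h (median 811.2). Each of these ranges lay above the untreated one, with log2 changes of 1.57 ± 0.25 at 6 h and 2.37 at 48 h.

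Schlafen genes restrain proliferation of immune cells and translation. Slfn2 was at 37.6 to 66 normalised reads untreated (median 48.8) and at 565.4 to 1084 at 6 h (median 638.9). At 24 h it was at 725.8, 772.3, 424.3 and 370.2, at 48 h at 207.9 to 320.4 (median 260.5) and on day 7 at 119.0, 117.6, 83.8 and 88.9. All later groups lay above the untreated range, and the log2 change went from 3.86 ± 0.24 at 6 h to 1.02 on day 7 (adjusted p = 0.00176). All 3 Schlafen genes were higher at 6 and 24 h, and 2 of 3 at 48 h.

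Among the other interferon-stimulated genes all 10 tested were higher at 6, 24 and 48 h, and 5 on day 7. Lgals3bp, a secreted glycoprotein, was the most abundant: it was at 269.4 to 350.8 normalised reads untreated (median 338.6), 743.4 to 1080 at 6 h (median 918.6), 1539, 2024, 1054 and 1691 at 24 h, and 1392 to 2422 at 48 h (median 1757). No library at 48 h overlapped the 6 h range, and the log2 changes were 1.60 ± 0.20 at 6 h and 2.46 at 48 h. Ifi27l2a, which encodes a small hydrophobic protein, followed the same late course, from 25.9 to 53.3 untreated (median 47.2) through 57.7 to 120.8 at 6 h (median 98.9) to 147.8 to 649.8 at 48 h (median 316.2). All 6 libraries at 48 h were above all 6 at 6 h. Here, as for Lgals3bp and Bst2, the 48 h libraries came from another experiment than those at 6 h. Its change was 0.87 ± 0.34 (adjusted p = 0.0404) at 6 h and 2.72 at 48 h. Ifi35, which binds transcription factors of the leucine zipper type, had its larger change early, with 1.74 ± 0.20 at 6 h and 0.52 (adjusted p = 0.037) at 48 h.

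**Figure D2:**
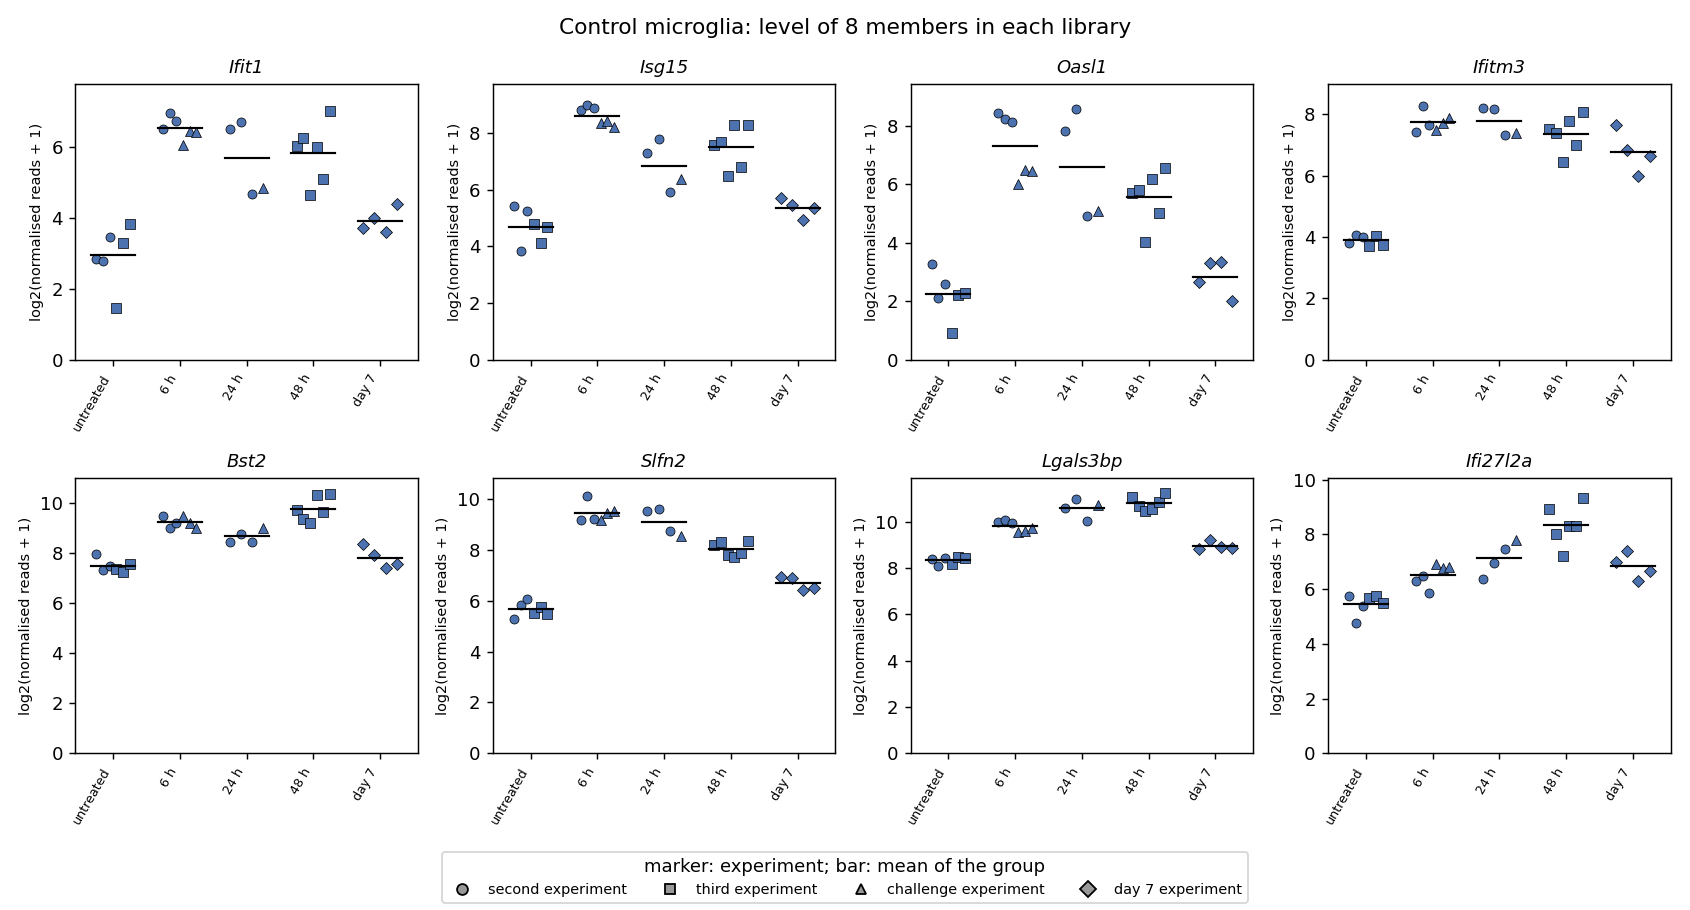
Level of 8 members in each control library as log2(normalised reads + 1), by time after LPS, with marker shape for the experiment and a bar for the group mean. Isg15, Ifit1 and Oasl1 are highest at 6 h, Lgals3bp, Bst2 and Ifi27l2a at 48 h, and Ifitm3 is still high on day 7. All 48 h libraries are of the third experiment.

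The direct comparison of 24 h with 6 h in controls showed which members had begun to decline. At 24 h 18 of 47 members were lower and 2 higher, against 13.4% and 12.9% of all genes, with a median of -0.55. Isg15 fell by 1.92 on the log2 scale (SE 0.35, adjusted p = 0.000168) and Usp18 by 1.67 (SE 0.32, adjusted p = 0.000378), from 82.7 to 195.9 normalised reads at 6 h to 82.2, 61.7, 24.7 and 35.7. For Usp18 the highest 24 h library was just below the lowest 6 h one. The 2 members that went against the majority were Lgals3bp (0.73 ± 0.17, adjusted p = 0.00248) and Ifi27l2a (0.79 ± 0.29, adjusted p = 0.044). Within the second experiment alone, 10 members were lower and 0 higher. Without the third or the fourth 24 h library the count of calls was 13.

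The 15 members higher on day 7 included Ifitm3, Samd9l (1.87 ± 0.47, adjusted p = 0.0183), Ifi47 (1.85 ± 0.42, adjusted p = 0.00846), Oas2 (1.8), Oasl2 (1.5), Ifi27l2a (1.37), Zbp1 (1.30) and Ifi207 (1.25). Without the first or the second day 7 library, 8 were called. The 4 day 7 libraries are an experiment of their own, so the time and that experiment cannot be told apart. They also carried more RNA of other cells: 7 of 7 neutrophil markers tested, 8 of 8 monocyte markers, 7 of 7 border macrophage markers and 4 of 4 red cell markers were higher, and 0 of 10 microglia markers were called. The summed neutrophil markers reached 2608 to 19332 normalised reads against 6.01 to 813.4 untreated, where Retnlg, Elane and Mmp8 were at 0. The monocyte markers summed to 285.0 to 1112 against 21.5 to 46.3, and those of border macrophages to 229.8 to 527.5 against 13.7 to 64.4. The red cell markers summed to 1588 to 3558. The part of these cells in the day 7 result was not tested.

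Genes that induce or carry the interferon signal were read from a separate list. Of 9 interferon ligand genes Ifnb1 was the only row, did not pass the filter, and was at most 13.3 normalised reads in the control table, at 24 h. Of 8 transcription factors 5 were higher and 1 lower at 6 h, of 7 receptors and their kinases 1 and 1, of 10 adaptors and kinases of induction 5 and 2, and of 5 feedback inhibitors 3 and 2. The 4 pathway genes of lowest p at 6 h were Socs3 (3.92) and Socs1 (3.41), which inhibit JAK signalling, and Irf7 (4.22) and Stat2 (2.80). On day 7 Irf7, the factor that amplifies interferon production, was still higher, by 1.36 (adjusted p = 0.00315), and Irf5 was lower (-0.56).

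The next comparison asked whether loss of Il10ra in cells with Cx3cr1-driven Cre changed these responses. Before LPS no member was called: 0 of 48 members tested were called in either direction by limma, and 0 by edgeR and by DESeq2, with 15 members at an unadjusted p under 0.05. Of all 11555 genes, 0% were called higher and 0.00865% lower. Here and elsewhere, counts at an unadjusted p, by edgeR or DESeq2 or within single experiments stand without the share of all genes. They are not read as results about the members. After LPS most members rose in the mutants. At 6 h 44 members were higher and 0 lower (26.5% of all genes higher and 28.6% lower), with a median of 2.35. At 24 h 42 were higher and 0 lower (26% and 27.4% of all genes), with a median of 1.84, and at 48 h 37 were higher and 0 lower (17.7% and 17.9% of all genes), with a median of 1.9. Oasl1 and Ifi207 were among the 3 largest changes at each time, with 5.08 and 4.03 at 6 h and 4.92 and 4.26 at 48 h. Some of these changes were much smaller within the challenge experiment than within the second. At 6 h Bst2 changed by 0.05 in the challenge experiment and 1.91 in the second, Oasl2 by 1.08 and 4.41, and Isg15 by 2.30 and 4.62. At 24 h Bst2 changed by 0.13 and 1.69. Eif2ak2 was alike at 6 h, with 2.23 and 2.22. Whether the experiments differ was not tested. The mean was highest at 6 h for 27 members, at 24 h for 2 and at 48 h for 20. Here too the 48 h libraries came from other experiments than those at 6 and 24 h.

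At 6 h mutants and controls differed in 1 member, Eif2ak2 (1.89% of all genes were higher and 1.42% lower). It was at 99.6 to 253.1 normalised reads (median 164.6) in 6 control libraries and at 191.1 to 380.7 (median 281.6) in 7 mutant ones. The ranges overlapped, with a log2 difference of 0.73 ± 0.18 (adjusted p = 0.0151). Without mutant library 5 at 6 h the difference was 0.69 and no longer called (adjusted p = 0.0559), and within the second experiment 0 members were called. At 24 h 2 members were higher and 0 lower, against 1.11% and 2.4% of all genes. Oasl1 was at 207.0, 345.6, 26.8 and 29.9 in controls and at 159.1, 593.7, 109.8, 225.7 and 350.0 in mutants (1.85 ± 0.55, adjusted p = 0.0451). Mx2, a dynamin-like antiviral GTPase, was at 56.5, 66.5, 31.9 and 22.4 in controls and at 57, 128.4, 55.4, 52.7 and 95.4 in mutants (1.08 ± 0.30, adjusted p = 0.0375). For both genes the groups overlapped. The count was 0 without control library 3 or 4 at 24 h, or without mutant library 2, 3, 4 or 5. It was 8 without control library 2. Of the 9 fits that each left out 1 of these libraries, 3 called Oasl1 and 3 called Mx2. The responses themselves did not differ by test in any member: the difference of the 6 h responses was called in 0 members (unadjusted p under 0.05 in 4) and that of the 24 h responses in 0 (unadjusted in 2), with 0 by edgeR and by DESeq2 in both. Of all genes 0% were called in either direction at 6 h, and 0% higher and 0.0433% lower at 24 h.

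Oas2 was singled out after its values were seen, because its response in mutants had opposite signs in different experiments. In untreated mutants it was at 1.52, 1.92 and 5.13 normalised reads in the second experiment, 12.1, 10 and 14.8 in the third, and 31.4, 21.4 and 37.8 in the challenge experiment. At 6 h the second experiment gave 85.3, 61.9, 33.2 and 83.9, and the challenge experiment 12.6, 11.1 and 15.5. The 6 h libraries thus lay wholly above the untreated ones in the second experiment and wholly below them in the challenge experiment. The log2 change at 6 h was 4.14 (adjusted p = 9.24e-06) within the second experiment, -1.12 (adjusted p = 0.0111) within the challenge experiment and 1.63 (adjusted p = 0.00539) over all. At 24 h it was 2.93 (adjusted p = 0.00329), -1.56 (adjusted p = 0.000724) and 0.52 (adjusted p = 0.444). Among the named members' changes called over all libraries or under an alternative, these were the only ones whose direction reversed. Some differences called in neither also changed sign. In controls, Oas2 at 6 h was at 57.1, 41 and 59.1 in the second experiment and 66.5, 44 and 63.6 in the challenge experiment, so that within the challenge experiment mutants were lower than controls at 6 h (-2.06, adjusted p = 0.00592), whereas over all experiments the difference of -0.75 was not called (adjusted p = 0.441). The challenge experiment had no untreated control library.

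At 48 h some members differed between mutants and controls. Of 48 members 10 were higher and 2 lower, against 12.7% and 15.2% of all genes. Members were thus lower less often than genes at large. The median difference was 0.34. The comparison rested on the 3 mutant and 6 control libraries of the third experiment. The other mutant libraries at 48 h came from an experiment without these controls. Oasl1 was at 47.7, 51.1, 14.2, 66.9, 29.1 and 85.3 normalised reads in controls and at 84.5, 375.2, 194.9, 277.8 and 395.7 in mutants, and only the lowest mutant library overlapped the controls (2.09 ± 0.56, adjusted p = 0.00406). Slfn2 was at 193.2 to 294.3 in controls (median 240.8) and at 515.4, 852.4, 626.5, 650.5 and 960.4 in mutants. These groups lay apart, with a difference of 1.44 ± 0.25 (adjusted p = 1.59e-05), the lowest p of the members. Samd9l, a restraint on cell growth and virus replication, was at 8.67 to 33.9 in controls (median 16.9) and at 29.5, 91.8, 44.9, 79 and 84.9 in mutants, of which the lowest lay within the control range (1.62 ± 0.50, adjusted p = 0.0118). The other members higher in mutants were Rtp4 (1.08), the RNA sensor Ifih1 (1.01), Ifi207 (0.91), Xaf1 (0.90), Ifi204 (0.85), Parp14 (0.75) and Ifi35 (0.60).

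The 2 members lower in mutants at 48 h were Ifi27l2a and Bst2, both among those that peaked late in controls. Ifi27l2a was at 136.3 to 596.9 normalised reads in controls (median 293.2) and at 194.5, 44.3, 137.2, 127.8 and 58.4 in mutants. Of the 5 mutant libraries 3 lay below all controls (-1.50 ± 0.40, adjusted p = 0.00359). Bst2 was at 538.1 to 1198 in controls (median 749.8) and at 470.6, 272.2, 559.1, 660.3 and 607.2 in mutants, which overlapped (-0.94 ± 0.28, adjusted p = 0.00836). Oas2 was at 29.2 to 155.9 in controls (median 63.3) and at 29.5, 16.5, 35.3, 20.4 and 27.3 in mutants, a difference of -1.31 ± 0.66 that was not called over all libraries (adjusted p = 0.137) and was called within the third experiment alone (adjusted p = 0.013). The 48 h response itself differed by test in 3 members, against 6.74% of all genes higher and 9.64% lower. The members did not exceed these shares. The response was smaller in mutants for Ifi27l2a (-2.14 ± 0.51, adjusted p = 0.00212) and Bst2 (-1.24 ± 0.35, adjusted p = 0.0101) and larger for Slfn2 (0.97 ± 0.31, adjusted p = 0.0261). The count of members was 5 with DESeq2 and 6 without an experiment term or within the third experiment. For Oas2 the difference of -2.24 was not called (adjusted p = 0.0594), and it was called with edgeR (-2.68, adjusted p = 0.0135), with DESeq2 (-2.75, adjusted p = 0.0143) and within the third experiment (-2.37, adjusted p = 0.00945).

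Several of these calls rested on mutant library 2 at 48 h. Without it 2 members were called at 48 h and the difference of responses was called in 0. Ifi27l2a was then at -0.88 and Bst2 at -0.64 (adjusted p = 0.157 for each), Oasl1 at 1.57 (adjusted p = 0.0828) and Samd9l at 1.18 (adjusted p = 0.152). The differences of responses were then 0.77 for Slfn2 (adjusted p = 0.151), -1.52 for Ifi27l2a (adjusted p = 0.0512) and -0.93 for Bst2 (adjusted p = 0.107). In the same comparison 9 of 10 microglia markers were lower in mutants, with summed levels of 9337 to 15789 normalised reads against 22839 to 28322, and 3 of 7 neutrophil markers and 1 of 7 monocyte markers were higher. Neutrophil markers summed to 27.8 to 1303 in mutants and 26.6 to 236.4 in controls, where Camp, Ltf, Mpo and Elane were at 0. Bst2 also marks plasmacytoid dendritic cells, of whose 4 markers tested 2 were lower. The part of these shifts in the members' changes was not tested.

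**Figure D3:**
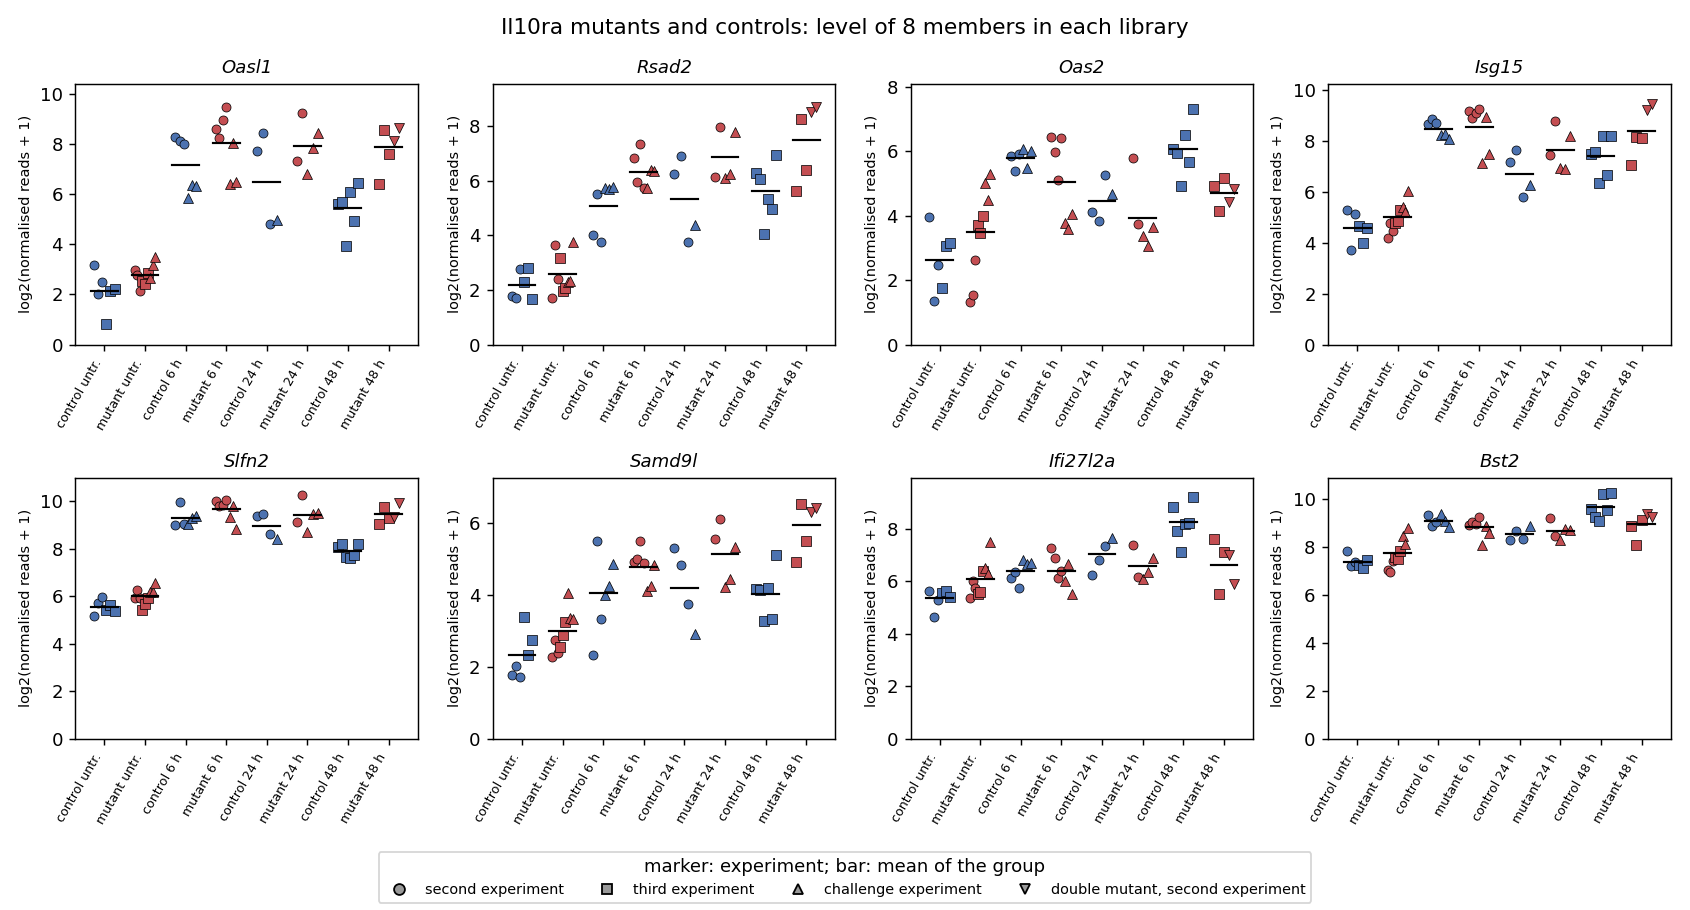
Level of 8 members in each Il10ra control (blue) and mutant (red) library as log2(normalised reads + 1), by time after LPS, with marker shape for the experiment and a bar for the group mean. At 48 h mutants lie above controls for Slfn2 and mostly below them for Ifi27l2a, and the Oas2 panel shows mutant libraries at 6 h divided by experiment.

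The double mutants, which lack Il10ra and Tnf in the same cells, were compared with doubly floxed controls. Both genotypes raised nearly every member. In doubly floxed controls 47 of 49 were higher and 0 lower at 6 h (21.6% of all genes higher and 21.1% lower) and 48 and 0 at 48 h (13.8% and 9.83%), with medians of 1.73 and 2.19. In double mutants 49 were higher and 0 lower at 6 h (22.8% and 21.5%) and 48 and 0 at 48 h (11.2% and 6.86%), with medians of 2.34 and 2.43. Oasl1 had the largest 6 h change in both, with 4.74 in doubly floxed controls and 5.04 in double mutants. At 48 h Ifi207 (4.32), Oasl1 (4.15) and Oas2 (3.96) led in doubly floxed controls, and Zbp1 (4.59), Ifi27l2a (4.58) and Oas2 (4.36) in double mutants. More members had their highest mean at 6 h in double mutants (33 of 49) than in doubly floxed controls (25), which was not tested as a difference.

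No member was called between double mutants and doubly floxed controls at any time by limma. Untreated, 0 of 49 were called (0 by edgeR and by DESeq2, 9 at an unadjusted p under 0.05) and the median was -0.1, with 0% of all genes higher and 0.0254% lower. At 48 h 0 were called (0 by edgeR and by DESeq2, 4 unadjusted) and the median was 0.28, with 0% of all genes higher and 0.0169% lower. At 6 h 0 were called by limma, 1 by edgeR and 9 by DESeq2, and 27 had an unadjusted p under 0.05. The 6 h median was 0.52, with differences from -0.33 to 1.37, against 0.0254% of all genes higher and 0.0424% lower. Rsad2, the radical enzyme viperin, was at 23.1, 37.5, 50.5, 16.5 and 34.9 normalised reads at 6 h in doubly floxed controls and at 126.3, 96.6, 135.2, 39.9, 60.2 and 54.2 in double mutants. The lowest double mutant library lay within the range of the controls, and the difference of 1.30 was not called (adjusted p = 0.211). Isg15 was at 148.7, 400.1, 443.6, 546.8 and 604.1 and at 1050, 882.7, 492.0, 314.7, 1029 and 1019, with 2 of the 6 double mutant libraries within the control range (0.97, adjusted p = 0.151). Ifit3 came nearest to a call, with 1.32 ± 0.28 (adjusted p = 0.0509). Without double mutant library 4 at 6 h, 4 members were called. The difference between the responses was called in 0 members at 6 h (19 unadjusted) and 0 at 48 h (9 unadjusted), and in 0 by edgeR and by DESeq2. Of all genes 0% were called higher and 0.00847% lower at 6 h, and 0% in either direction at 48 h.

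**Figure D4:**
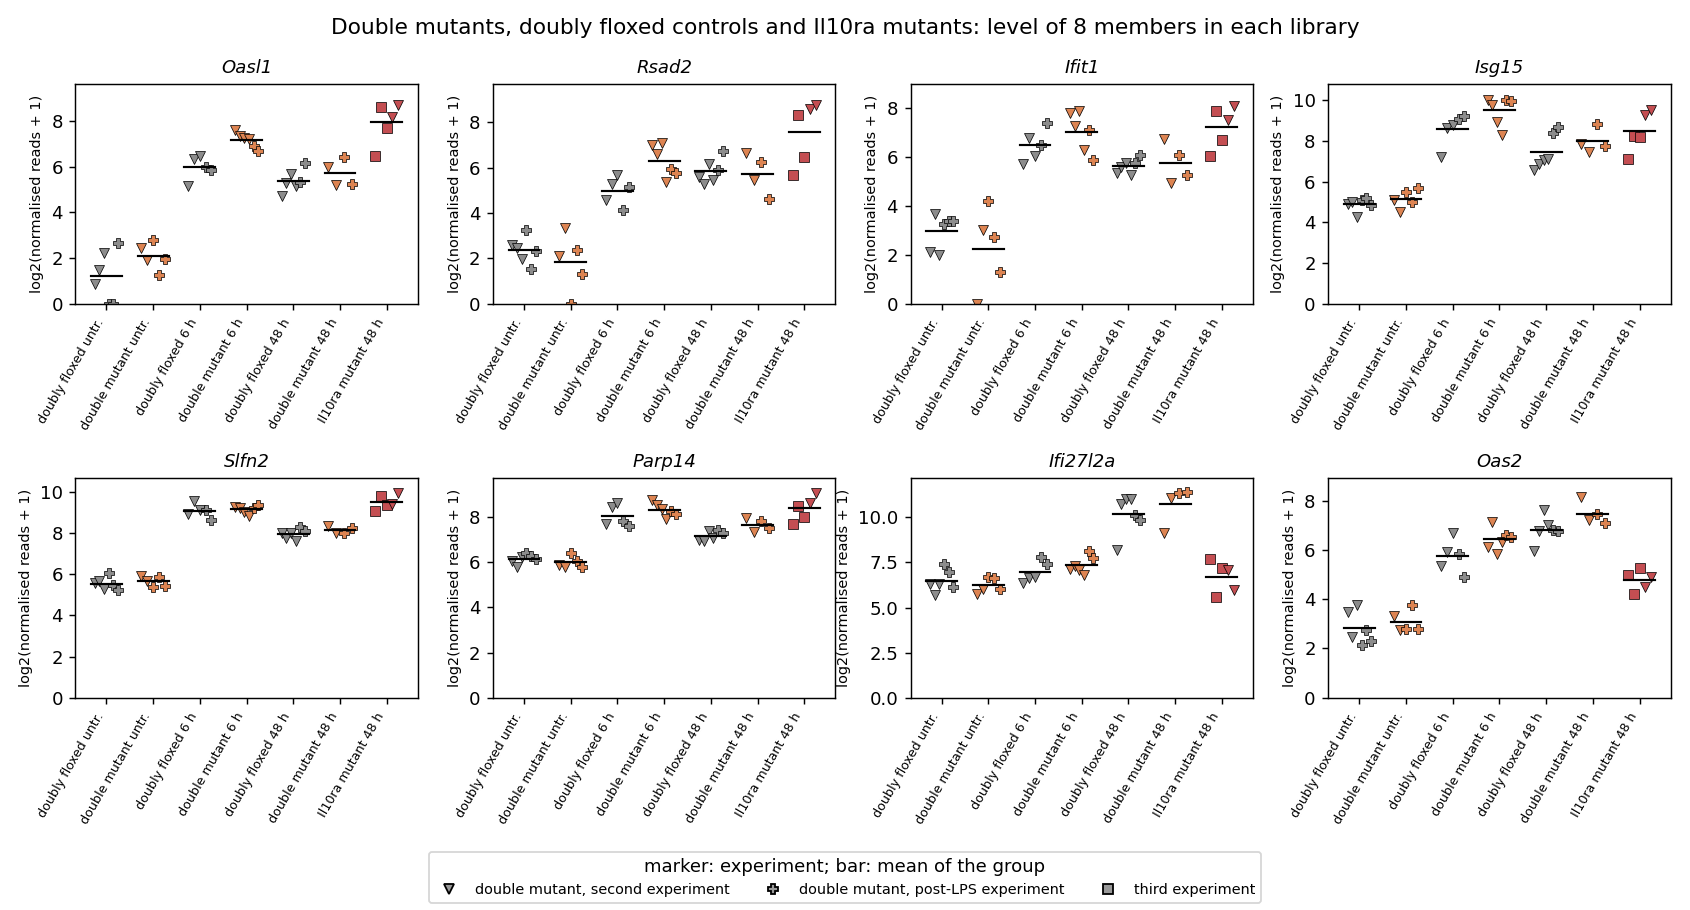
Level of 8 members in each library of doubly floxed controls (grey), double mutants (orange) and Il10ra mutants at 48 h (red) as log2(normalised reads + 1), with marker shape for the experiment and a bar for the group mean. Of the 48 h groups, Il10ra mutants have the highest mean for Oasl1, Slfn2 and Parp14 and the lowest for Oas2 and Ifi27l2a.

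The double mutant table also holds the Il10ra mutants at 48 h, which allowed the 3 genotypes to be set side by side at that time. Both contrasts with Il10ra mutants share these mutant libraries, and both rest on the 2 of them that were prepared in the double mutant second experiment. Against doubly floxed controls 22 members were higher in Il10ra mutants and 2 lower, while 16.6% of all genes were higher and 17.3% lower, with a median of 0.62. Oasl1 was at 88.4, 394.5, 204.1, 289.6 and 413.7 normalised reads in Il10ra mutants, at 24.9 to 70.8 (median 38.6) in doubly floxed controls and at 62.7, 35.8, 84.9 and 37.2 in double mutants. All Il10ra mutant libraries lay above all others (3.01 ± 0.52 against doubly floxed controls, adjusted p = 1.69e-05, and -2.65 ± 0.56 for double mutants against Il10ra mutants, adjusted p = 0.000336). Rsad2 was at 50, 322.7, 87.4, 382.2 and 435.9 in Il10ra mutants, at 37.6 to 106.2 (median 52.8) in doubly floxed controls and at 99.4, 42.4, 76.1 and 23.7 in double mutants. Of the Il10ra mutant libraries 3 lay above all others, and the differences were 2.69 ± 0.60 (adjusted p = 0.000484) and -2.73 ± 0.64 (adjusted p = 0.00111).

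Isg15 was at 137.3, 299.7, 294.8, 619.1 and 745.7 normalised reads in Il10ra mutants, at 94.9 to 413.0 (median 135.4) in doubly floxed controls and at 227.1, 176.8, 463.8 and 217.8 in double mutants. The highest Il10ra mutant libraries were the pair from the double mutant experiment (2.22 ± 0.38, adjusted p = 1.19e-05, and -1.83, adjusted p = 0.00056). Slfn2 was at 538.6, 896.2, 656.0, 678.3 and 1004 in Il10ra mutants, at 193.4 to 316.0 (median 258.2) in doubly floxed controls and at 330.0, 259.0, 254.6 and 302.4 in double mutants. Il10ra mutants again stood wholly above the others (1.73 ± 0.22, adjusted p = 7.51e-08, and -1.54, adjusted p = 3.29e-06). Parp14 showed the same order, with 206.5, 360.3, 258.7, 397.9 and 543.6 against 123.9 to 171.2 in doubly floxed controls and 163.6 to 251.4 in double mutants, where the lowest Il10ra mutant library overlapped the double mutants (1.69, adjusted p = 6.66e-07, and -1.20).

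A few members ran the other way. Ifi27l2a was at 203.3, 46.6, 143.6, 133.3 and 61 normalised reads in Il10ra mutants, at 295.9 to 2091 (median 1406) in doubly floxed controls and at 564.2, 2112, 2636 and 2725 in double mutants. All Il10ra mutant libraries lay below all others, with differences of -3.42 ± 0.51 against doubly floxed controls (adjusted p = 1.46e-06) and 3.89 ± 0.55 for double mutants against Il10ra mutants (adjusted p = 7.2e-07). In the other table, normalised separately, the same Il10ra mutant libraries were at 44.3 to 194.5 and the IL10Rafl/fl controls at 136.3 to 596.9. Oas2 was at 30.9, 17.4, 37, 21.3 and 28.5 in Il10ra mutants, at 61.4 to 197.2 (median 109.6) in doubly floxed controls and at 280.1, 145.7, 174.1 and 135.4 in double mutants, again with no overlap (-2.24 ± 0.40, adjusted p = 3.46e-05, and 2.93 ± 0.43, adjusted p = 1.88e-06). Oas1g was called in the second contrast at levels near the limit of detection, with 0, 1.68, 1.68, 0 and 0 in Il10ra mutants and 3.98, 4.64, 7.31 and 3.39 in double mutants.

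In all, double mutants had 3 members higher and 14 lower than Il10ra mutants at 48 h, against 14.9% and 13.7% of all genes, with a median of -0.4. Without an experiment term, which brings in the other 3 Il10ra mutant libraries, 7 were higher and 10 lower, and Isg15 was at -0.49 and not called (adjusted p = 0.412). By role, the members higher in Il10ra mutants than in doubly floxed controls were 3 of 4 IFIT genes, 1 of 6 OAS genes, 3 of 6 of ISG15 conjugation and E3 ligases, 2 of 3 PARP genes, 3 of 8 sensors and kinases, 5 of 8 antiviral effectors, 2 of 3 Schlafen genes and 3 of 11 others. Those lower in double mutants than in Il10ra mutants were 3 IFIT genes, 1 OAS gene, 1 of ISG15 conjugation, 1 PARP gene, 1 sensor, 3 antiviral effectors, 2 Schlafen genes and 2 others. Without Il10ra mutant library 5 the counts were 12 higher and 2 lower against doubly floxed controls, and 2 higher and 6 lower for double mutants against Il10ra mutants. That fit leaves 1 Il10ra mutant library in these contrasts, which is assumed to vary like the other groups. Microglia markers moved in both contrasts: 8 of 10 were lower in Il10ra mutants than in doubly floxed controls, and 8 of 10 were higher in double mutants than in Il10ra mutants. Border macrophage markers summed to 10.2 to 28.7 normalised reads in Il10ra mutants, where Lyve1 and Cd209f were at 0, to 28.5 to 241.0 in doubly floxed controls and to 28.5 to 133.4 in double mutants. The monocyte markers summed to 26.9 to 208.6, 116.3 to 445.6 and 203.1 to 440.5. Their part in the result was not tested.

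The Il10ra mutants at 48 h were thus compared with controls in 2 tables through different libraries on both sides, 3 mutants of the third experiment with IL10Rafl/fl controls and 2 of the double mutant experiment with doubly floxed ones. The members called higher numbered 10 and 22, and 7 were in both: Ifi35, Ifih1, Oasl1, Parp14, Rtp4, Samd9l and Slfn2. These are 70.0% of the first list and 31.8% of the second. The members called lower numbered 2 and 2, and Ifi27l2a was in both (50% of each). The overlap of calls over all genes was not computed, so how far these shares are particular to the members was not tested. Bst2 was lower in the first only, and in the second it was at 491.8, 286.2, 585.4, 688.5 and 634.8 normalised reads in Il10ra mutants and 505.4 to 1849 in doubly floxed controls. Isg15, at 0.37 in the first and 2.22 in the second, was called in the second only. Whether the contrasts differ was not tested.

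**Figure D5:**
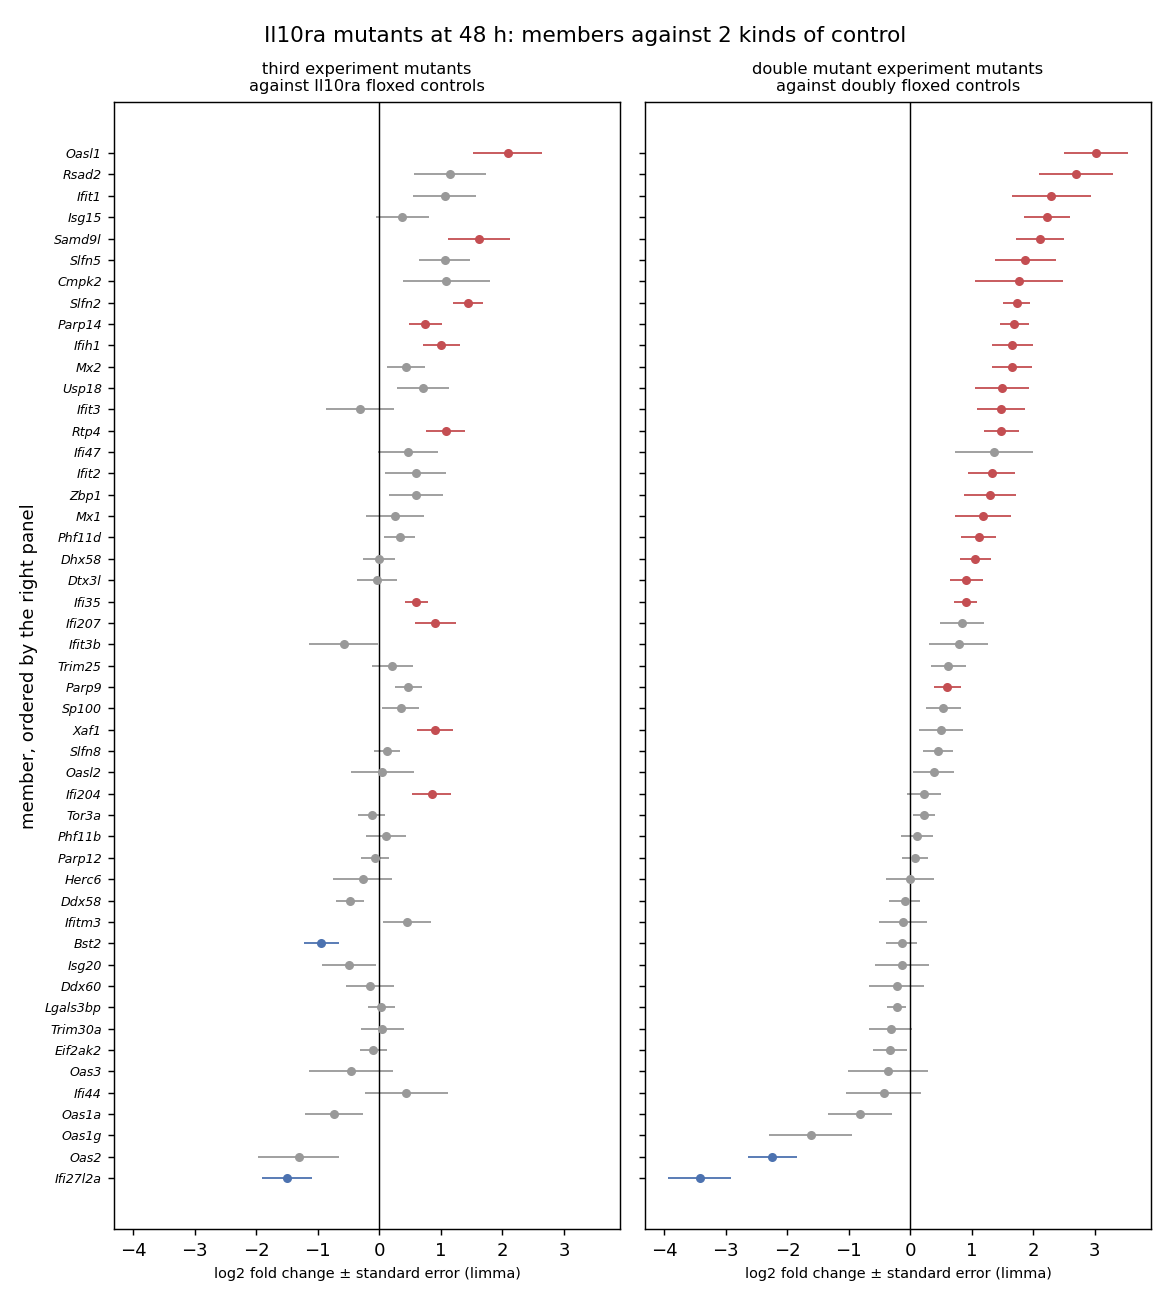
Log2 fold change with its standard error (limma) of each member in Il10ra mutants at 48 h, against IL10Rafl/fl controls (left) and against doubly floxed controls (right), with members called higher in red, called lower in blue and not called in grey. The 7 members higher in both panels include Oasl1 and Slfn2, and Ifi27l2a is lower in both.

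Pathway genes were also read at 48 h. Between Il10ra mutants and IL10Rafl/fl controls 0 of 8 transcription factors were called, 3 of 7 receptors and kinases were lower, and 1 of 10 adaptors and kinases was higher and 2 lower. The lowest p belonged to Tmem173, which encodes the DNA-sensing adaptor STING (-1.79, adjusted p = 5.47e-06), with Ifnar2 (-0.53), Tlr4 (-1.06) and Ifngr1 (-0.70). Against doubly floxed controls 6 of 8 transcription factors and 3 of 5 feedback inhibitors were higher and 0 of either lower, with Tmem173 at -2.27, Socs1 at 2.65, Socs3 at 1.56 and Tbk1 at 1.04. In double mutants against Il10ra mutants Tmem173 was at 2.22 and Ikbke, a kinase that activates IRF3, at -3.87. Between double mutants and doubly floxed controls at 6 h Socs1 was the only pathway gene called (1.41, adjusted p = 0.027). Ifnb1 was at 0 in all untreated Il10ra mutants and at 1.02, 2.67, 0.802, 3.55 and 11.4 normalised reads in those at 48 h.

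Members with and without the response element core could be compared in the same contrasts. In controls at 6 h 18 of 18 tested members with the core and 16 of 17 without it were higher, with medians of 2.19 and 2.29. At 24 h the counts were 15 of 18 and 13 of 17, with medians of 1.36 and 1.98. At 48 h the counts were 15 of 18 and 14 of 17, with medians of 2.54 and 1.65. In Il10ra mutants at 48 h against untreated ones they were 13 of 18 and 14 of 18, with medians of 1.37 and 2.23, so neither set had the larger median throughout. In Il10ra mutants against doubly floxed controls at 48 h, 6 of 19 members with the core and 8 of 18 without it were higher, with medians of 0.11 and 0.76. These are descriptions of the 37 members with a promoter entry and were not tested.

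Untreated C57BL/6 microglia, without floxed alleles, differed from untreated IL10Rafl/fl controls before any LPS. Of 45 members tested 27 were higher and 0 lower, with a median of 1.12, against 5.8% and 3.95% of all 10367 genes. Ifitm3 was at 10.3 to 13.6 normalised reads in the 6 controls (median 12.0) and at 63.6, 135.0, 82.9 and 72.8 in the 4 C57BL/6 libraries (2.73 ± 0.33, adjusted p = 2.92e-06). Oas2 was at 1.44 to 13.3 (median 5.62) and at 17.7, 46.9, 34.5 and 46.2 (2.59 ± 0.61, adjusted p = 0.00658), and Ifit3 at 2.15 to 15.6 (median 6.56) and at 41.2, 50.6, 31.1 and 33.6 (2.35 ± 0.41, adjusted p = 0.000311). None of these ranges overlapped, as was so for 26 members, a count not taken over all genes. Irf7 was higher too, by 2.00. The summed level of all members was 2744 to 3228 in C57BL/6 and 1297 to 1584 in controls, far below the 4193 to 9965 that controls reached at 48 h in the table of Il10ra mutants, whose scale was set separately. The C57BL/6 libraries are an experiment of their own, so strain, alleles and experiment cannot be told apart. In them 4 of 4 red cell markers were higher (median 5.30) and 3 of 5 neutrophil markers lower, and their part in the difference was not tested.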

How the data were processed

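RNA was measured in 89 libraries, made by MARS-seq (3' tag libraries) per the labels' protocols, and mapped to mm10 per the submitters' processing notes. The sources used here do not state the aligner, the counting or the scaling. The 4 tables hold signal, normalised reads per gene, deposited by the authors. Whole reads were recovered for 100% of values within a tolerance of 0.01 and used for edgeR 4.0.16 and DESeq2 1.42.0, as alternatives. Members, lists and tests were chosen with earlier results of these data known.

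limma 3.58.1 (R 4.3.3) was fitted with a trend to log2(value + 1) of every gene that reached 5 normalised reads in as many libraries as the smallest group holds, which left 11103, 11555, 11800 and 10367 genes, with groups and an additive experiment term (none for C57BL/6), and Benjamini-Hochberg adjustment over all genes in each of 27 comparisons. Figures were drawn with matplotlib 3.10.9. Reads per library ran from 685687 to 1741686 (controls), 558878 to 1875460 (Il10ra mutants), 540642 to 2489084 (double mutants) and 558105 to 1496077 (untreated).

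Per-library values were given for the most abundant member of each role class, and a second in classes of 6 or more; changes were named for these, for the 3 largest and 3 smallest called changes and for members against the majority, and for the 4 pathway genes of lowest p. Oas2 and other values were added after they were seen. A library whose labels name different genotypes was left out; a column named as a mistake, of an untreated double mutant, was kept because its labels did not disagree. The 20 ATAC libraries, on mm9, were not used. Alternatives were the pseudocount, the filter, edgeR, DESeq2, quantile scaling, no experiment term, each experiment alone, each library left out and a replicate block. Scripts were tested on simulated reads with known changes. For controls at 6 h against untreated, limma recovered 37.6% of 2-fold and 85% of 4-fold changes, and 9.4% of calls were false. For Il10ra mutants against controls at 48 h it recovered 42.7% and 80.8%, with 6% of calls false. A member not called may therefore still differ by 2-fold.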

Additional observations from a re-analysis of the deposited data

Results flagged for a closer look

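The members chosen by abundance in each role class, Ifi27l2a, Rsad2, Oas2 and the summed level of all members were screened. In each group of 4 to 10 libraries, Dixon's test at 95% looked for a highest or lowest value set apart from the rest. The other members named in the report were not screened. Of 272 such level groups 15 were marked, and chance marks about 1 in 20. Library 9 of the untreated Il10ra mutants, from the challenge experiment, accounted for 6 of them. It had 29.7 normalised reads of Oasl2 (5.13 to 16.9 in the others), 100.7 of Parp14 (50 to 74.2), 85.8 of Ifi204 (22.9 to 39.3), 60.6 of Ifitm3 (8.55 to 27.5) and 177.3 of Ifi27l2a (40.4 to 89.1), and its members summed to 2876 (1560 to 2090).

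High single values of other groups were Ifi35 at 183.1 in untreated control 3 (128.7 to 143.5 in the others) and at 201.9 in untreated Il10ra mutant 2 (112.6 to 149.2), and Slfn2 at 1084 in control 2 at 6 h (565.4 to 732.6). Oas2 was at 54.3 in Il10ra mutant 1 at 24 h (7.36 to 12.4), where the other library of the second experiment had 12.4. Ifitm3 was at 49.1 in untreated doubly floxed control 6 (13.6 to 26), Lgals3bp at 2031 in the fourth doubly floxed control at 48 h (1560 to 1675) and Ifi35 at 113.7 in untreated double mutant 1 (76.1 to 85.8). In double mutants at 48 h Lgals3bp was low in library 4, at 1601 (1827 to 1869), and the summed members high in library 3, at 11843 (8979 to 9457).

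The 48 h response differed by an interaction test between Il10ra mutants and controls for Slfn2 (0.97 on the log2 scale), Ifi27l2a (-2.14) and Bst2 (-1.24). The members did not exceed the share of all genes in either direction.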

How the results depend on the processing

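Over the alternatives run, 617 of the counts of calls and motif shares were labelled the same as the main result and 39 were not. A count was labelled the same if higher and lower calls together stayed within 1.5 times the main count. The split between higher and lower could therefore move unseen. A motif share was labelled the same if it lay within the 95% confidence interval of the main share. Among named changes called over all libraries or under the alternative, direction reversed in 2 cases, both of Oas2 within the challenge experiment in Il10ra mutants: -1.12 at 6 h and -1.56 at 24 h. Within the second experiment the count of members called at 24 h against 6 h in controls was 10, and 0 between Il10ra mutants and controls at 6 h and at 24 h. Without an experiment term these 2 counts were also 0, and the difference of 48 h responses was called in 6. With no experiment term, double mutants against Il10ra mutants at 48 h had 7 higher and 10 lower. That difference of 48 h responses was called in 5 with DESeq2 and in 6 within the third experiment, and that between Il10ra mutants and controls at 24 h in 1 with a pseudocount of 0.5. Double mutants against doubly floxed controls at 6 h gave 1 member with a pseudocount of 4, no filter, a filter of 20 or edgeR, and 9 with DESeq2. Allowing 1 mismatch, 94.6% of members held the response element core. The cause was not tested.

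Leaving out 1 library at a time gave 8 to 15 calls on day 7, 13 to 20 for 24 h against 6 h, and 0 to 1 (6 h), 0 to 8 (24 h) and 2 to 13 (48 h) between Il10ra mutants and controls. The difference of 48 h responses ranged from 0 to 4, Il10ra mutants against doubly floxed controls from 14 to 24 and double mutants against Il10ra mutants from 8 to 20. Double mutants against doubly floxed controls at 6 h ranged from 0 to 4, and the difference of their 6 h responses from 0 to 1.

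Replicate numbers did not pair libraries: same-numbered deviations correlated by -0.33 to 0.42. With the replicate block the difference of 48 h responses was called in 5 members. Fits within an experiment were not possible for day 7 and C57BL/6, and protein identity was not run. Low members such as Oas1g are limited by depth.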
